A study of Mus musculus with 8 samples.

Results

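The melanosome and pigment synthesis genes examined here are 10 genes taken by symbol: Pmel, Mlana, Tyr, Tyrp1, Dct, Slc45a2, Slc24a5, Oca2, Gpr143 and Trpm1. All 10 were found among the 55487 genes of the deposited tables, and all 10 were among the 13032 genes that passed the filter on low values. The 8 libraries came from C57BL/6 mice that carried B16F10, a pigmented melanoma line of the mouse, under the skin. In the tacrolimus group 4 mice were given tacrolimus (FK506), which blocks the phosphatase calcineurin, by intraperitoneal injection at 3 mg/kg every 5 days, and in the vehicle group 4 mice were given vehicle every 5 days, although the series' design text calls these mice untreated. Dosing began 7 to 9 days after the tumor cells were injected, at about 50 mm3, and the tumors were taken 6 days later. From each mouse 1 library was made, of RNA from flow-sorted tumor-infiltrating lymphocytes labelled CD8+, and neither the mice's age nor their sex is given in the sources used here.

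Melanocytes and pigmented melanoma cells make melanin inside melanosomes, organelles related to lysosomes. Amyloid fibrils built from Pmel form the scaffold, the tyrosinase family of enzymes makes the pigment from tyrosine, and transporters set the ion balance and pH of the organelle. Several of these proteins, among them Pmel (gp100), Tyrp1 (gp75), Dct (TRP-2), Tyr and Mlana (MART-1), are classical melanoma antigens recognised by CD8+ T cells. Their transcripts are background markers of melanocytic cells and are not T cell genes.

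Transcription of many pigment genes is driven by MITF, the master factor of the melanocyte lineage, which binds short E-box sequences, one form of which is the M-box. RefSeq promoter windows (GRCm38.p6, 250 bases before to 50 after the start) were at hand for 6 of the 10 genes, in 7 windows because Trpm1 has starts at 2 places. The M-box core TCATGTG, searched on both strands, occurred in 5 of these 7 windows, which belong to 5 of the 6 genes (Tyr, Tyrp1, Dct, Slc24a5 and Trpm1), against 3.77% of the 32851 windows of all genes. The E-box CACGTG, also searched on both strands and not contained in TCATGTG, occurred in 1 of the 7 windows, that of the second Trpm1 start, against 7.15% of all windows. Neither motif was matched in the Oca2 window. The 4 sequences below are shown because they hold the match and come from genes the results turn on. In ratios within a library, the groups did not overlap for Tyr against Slc24a5 and against Trpm1. For Dct they did not overlap against Pmel and Tyrp1, and they overlapped against Slc24a5 and Trpm1. The sequences run 5′ to 3′ on the strand of the gene and stop before the first annotated exon. They carry each match on either strand in capitals, so that CACATGA is the match read on the other strand. They lie at chr7:87493513-87493762 on the minus strand (Tyr), chr14:118052247-118052496 on the minus strand (Dct), chr2:125067877-125068123 on the plus strand (Slc24a5) and chr7:64153585-64153834 on the plus strand (Trpm1).
Tyr: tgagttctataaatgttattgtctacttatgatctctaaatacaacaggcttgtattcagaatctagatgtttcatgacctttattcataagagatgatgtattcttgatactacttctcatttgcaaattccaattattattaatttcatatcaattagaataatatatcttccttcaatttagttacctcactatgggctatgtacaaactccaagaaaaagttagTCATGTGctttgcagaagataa
Dct: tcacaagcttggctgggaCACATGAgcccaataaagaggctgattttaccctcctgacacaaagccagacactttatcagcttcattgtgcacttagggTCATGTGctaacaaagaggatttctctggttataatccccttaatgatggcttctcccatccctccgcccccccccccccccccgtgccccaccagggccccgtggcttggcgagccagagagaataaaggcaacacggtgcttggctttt
Slc24a5: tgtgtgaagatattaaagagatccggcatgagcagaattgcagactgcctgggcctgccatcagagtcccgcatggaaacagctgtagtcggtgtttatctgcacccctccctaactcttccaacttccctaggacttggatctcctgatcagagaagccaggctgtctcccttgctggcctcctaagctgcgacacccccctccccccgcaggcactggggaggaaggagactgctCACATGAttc
Trpm1: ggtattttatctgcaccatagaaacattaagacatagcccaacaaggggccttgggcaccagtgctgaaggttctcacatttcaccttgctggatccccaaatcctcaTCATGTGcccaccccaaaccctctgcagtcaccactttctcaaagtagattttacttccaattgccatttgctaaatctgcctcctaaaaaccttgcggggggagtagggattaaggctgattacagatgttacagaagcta
Counted from the RefSeq start, the match began at -22 in Tyr, at -13 in Slc24a5 and at -142 in Trpm1, and Dct held 2 matches, at -232 and -151. In Tyrp1 the match began at -47, inside an exon of another annotation, and it is not printed. A match of letters is a description and does not show that a factor was bound.

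The values are FPKM, sequenced fragments per length of transcript and size of library, a unit inferred from the values, and a library is estimated to hold 15750000 to 19800000 fragments. At this depth the least abundant of the 10 genes, Gpr143, rested on an estimated 676 to 1256 fragments per library, a counting error of 2.82% to 3.85%, which is smaller than the spread between mice. Although the cells were sorted as CD8+, Cd8a stood at place 841 to place 9927 by level within a library. The summed level of 15 T cell markers was 68.2 to 511 FPKM with tacrolimus and 521 to 2454 FPKM with vehicle, and that of 11 macrophage markers was 226 to 530 and 406 to 1723 FPKM in the same order of groups. Vehicle replicate 1, which took 63.9% of the variation along the first principal component, had the highest and tacrolimus replicate 2 the lowest sums for both lists. None of the 7 keratinocyte markers passed the filter and 6 of them stayed under 1 FPKM in every library. In bulk RNA, fewer cells of a type and less RNA per cell cannot be told apart.

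Pigment transcripts were a large part of every library. Summed over the 10 genes they amounted to 22608, 26520, 25867 and 27739 FPKM in tacrolimus replicates 1 to 4 and to 19112, 30240, 28220 and 34657 FPKM in vehicle replicates 1 to 4. Vehicle replicate 1 was the lowest library and vehicle replicate 4 the highest, so that the tacrolimus libraries lay inside the vehicle range. The sum was 25683 ± 2192 FPKM with tacrolimus and 28057 ± 6542 FPKM with vehicle (SD, n = 4 each), or 2.84% ± 0.249 and 3.09% ± 0.741 of everything in the library. After median-of-ratios scaling the order of the means turned, to 27705 FPKM with tacrolimus and 25775 FPKM with vehicle. Mitochondrially encoded genes, which share the same total, took 13.8% ± 4.49 of it with tacrolimus and 9.18% ± 2.53 with vehicle, and with them left out the mean pigment share was 3.29% with tacrolimus and 3.39% with vehicle. Dct and Pmel alone held 79.5% to 85.4% of the pigment sum in a library. Against the T cell markers, the pigment sum was 44.2, 389, 94.2 and 93.6 times as high in tacrolimus replicates 1 to 4 and 7.79, 58.0, 38.9 and 49.7 times as high in vehicle replicates 1 to 4. All 10 pigment genes exceeded Cd8a in 3 of the 4 tacrolimus libraries and in 2 of the 4 vehicle libraries.

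**Figure D1:**
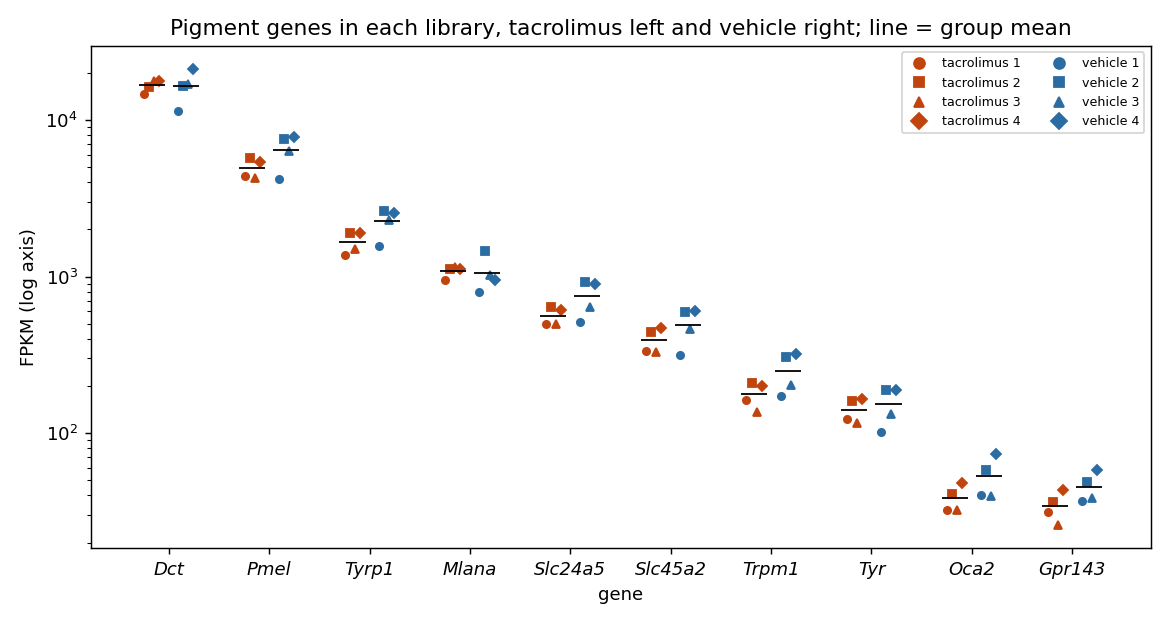
FPKM (log axis) of the 10 pigment genes in each of the 8 libraries, ordered by mean level, with tacrolimus left and vehicle right for each gene and a line at the group mean. Levels ran from 16579 FPKM on average for Dct to 39.9 FPKM for Gpr143, and in every gene the points of the groups overlap.

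The order of the levels was the same in all 8 libraries. Since FPKM is a level per length, genes can be set side by side: the means over the 8 libraries were 16579 FPKM for Dct, 5717 for Pmel, 1961 for Tyrp1, 1070 for Mlana, 655 for Slc24a5, 443 for Slc45a2, 213 for Trpm1, 147 for Tyr, 45.6 for Oca2 and 39.9 for Gpr143. Dct, the enzyme dopachrome tautomerase, ranked from place 2 to place 6 within a library, and Gpr143 from place 2013 to place 3344. Tyr, the enzyme that starts melanin synthesis, was the least abundant of the tyrosinase family, at place 629 to place 1255. Within a library Dct exceeded Pmel 2.18 to 4.17 times, and Pmel exceeded Tyrp1 2.68 to 3.22 times. The closest neighbours were Oca2 and Gpr143, with a ratio of 1.03 to 1.28 and a mean log2 ratio of 0.18 ± 0.12 (SD, n = 8), and their levels overlapped between libraries. The ratio of Mlana to Slc24a5 ran from 2.33 in tacrolimus replicate 3 to 1.06 in vehicle replicate 4. For each pair of neighbours the mean log2 ratio was larger than its SD.

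The comparison of tacrolimus with vehicle asks how far these transcripts differed with treatment. By limma, 0 of the 10 pigment genes had an adjusted p under 0.05, and so did 0.00% of the 13032 genes tested. At an unadjusted p under 0.05 the counts were 0 of 10 and 17.4% of all genes. Of the 10 genes 8 had a lower log2 value with tacrolimus, where 75.7% of all genes tested did, and their median difference was -0.37 beside -0.19 for all genes. After median-of-ratios scaling, which brings the median gene to 0.00, 7 of the 10 were lower beside 50.1% of all genes, with a median difference of -0.14. The scaled differences were -0.14 for Pmel, 0.29 for Mlana, 0.13 for Tyr, -0.20 for Tyrp1, 0.26 for Dct, -0.08 for Slc45a2, -0.15 for Slc24a5, -0.21 for Oca2, -0.19 for Gpr143 and -0.25 for Trpm1. For no gene of the 10 did the groups stand fully apart, where 11.0% of all genes did so in either direction (6.65% after median-of-ratios scaling). All differences are tacrolimus minus vehicle, in log2(FPKM + 1). The T cell and macrophage markers were lower by more, with a median of -1.87 over 15 and of -1.10 over 11 genes. In limma 0 of these 26 had an adjusted p under 0.05, while 15 of 15 and 6 of 11 had an unadjusted p under 0.05, and their part in the pigment differences was not tested. Of 7 melanoma cell markers outside the pigment genes, which include Sox10 and Mitf of the lists described further on, 6 were tested, of which 5 were higher and 1 lower with tacrolimus. Their median difference was 0.09 as deposited and 0.29 after median-of-ratios scaling, and 0 had an adjusted or an unadjusted p under 0.05 in limma.

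**Figure D2:**
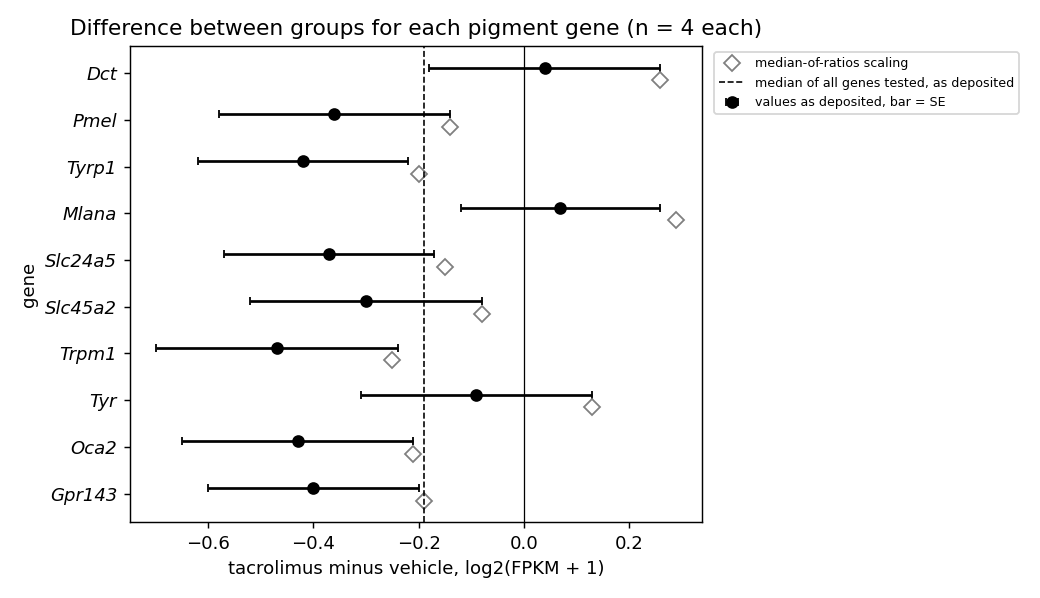
Difference between the groups for each pigment gene, tacrolimus minus vehicle in log2(FPKM + 1) (filled points with SE, n = 4 each), beside the difference after median-of-ratios scaling (open diamonds) and the median of all genes tested (dashed line, -0.19). Dct and Mlana lie at or above 0 and Tyr close to it, while the other 7 genes lie between -0.30 and -0.47.

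Of the structural proteins of the melanosome, Pmel averaged lower with tacrolimus and Mlana did not. Pmel (ENSMUSG00000025359, GRCm38 chr10:128704195-128720238), the fibril protein, was at 4392, 5754, 4273 and 5405 FPKM in tacrolimus replicates 1 to 4 and at 4223, 7567, 6345 and 7772 FPKM in vehicle replicates 1 to 4. Vehicle replicate 1 was the lowest library of all, and the other 3 vehicle libraries lay above every tacrolimus library. The difference was -0.36 (SE 0.22, limma adjusted p = 0.409). With each library left out it ran from -0.55 without vehicle replicate 1 (adjusted p = 0.201) to -0.26 without vehicle replicate 4 (adjusted p = 0.592). Pmel shares 837 bases of its annotated span with Cdk2 on the other strand and 105 with Dgka, and since the strand setting of the counting is not given in the sources used here, reads of these ends cannot be told apart. Mlana (ENSMUSG00000024806, chr19:29697824-29708634), a small membrane protein that binds Pmel and takes part in its maturation, had 945, 1115, 1154 and 1123 FPKM in tacrolimus replicates 1 to 4 against 792, 1450, 1027 and 956 FPKM in vehicle replicates 1 to 4. The tacrolimus values fell inside the vehicle range, with a difference of 0.07 (SE 0.19, adjusted p = 0.861) that became -0.06 without vehicle replicate 1.

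As deposited, the enzymes of the tyrosinase family did not share a direction, with the differences of Tyr and Dct smaller than their errors. Without vehicle replicate 1 all of them were lower with tacrolimus, Dct at -0.13. Tyr (ENSMUSG00000004651, chr7:87424771-87493512), the rate-limiting oxidase of melanin synthesis and the gene mutated in albino mice, was at 123, 160, 115 and 166 FPKM in tacrolimus replicates 1 to 4 and at 102, 189, 132 and 188 FPKM in vehicle replicates 1 to 4. Here too the vehicle group held both the lowest and the highest value, and the difference of -0.09 (SE 0.22, limma adjusted p = 0.848) was smaller than its error and became 0.13 after median-of-ratios scaling and -0.27 without vehicle replicate 1. Tyrp1 (ENSMUSG00000005994, chr4:80834123-80851719), the gene of the brown coat color locus, was at 1366, 1898, 1496 and 1909 FPKM in tacrolimus replicates 1 to 4 against 1575, 2622, 2281 and 2542 FPKM in vehicle replicates 1 to 4. Vehicle replicate 1 alone fell inside the tacrolimus range. Among the 10 genes Tyrp1 had the smallest unadjusted p, 0.0594, with a difference of -0.42 (SE 0.20, adjusted p = 0.301), or 0.75-fold. With each library left out the Tyrp1 difference ran from -0.59 without vehicle replicate 1 to -0.33 without tacrolimus replicate 1.

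Dct (ENSMUSG00000022129, chr14:118012790-118052244), which converts dopachrome on the way to eumelanin and whose product TRP-2 is a CD8+ T cell target in B16 tumors, was the most abundant pigment transcript in every library. It was at 14722, 16220, 17811 and 17764 FPKM in tacrolimus replicates 1 to 4 and at 11339, 16479, 17049 and 21246 FPKM in vehicle replicates 1 to 4. The group means were nearly equal, 16629 ± 1471 and 16528 ± 4060 FPKM, and the difference was 0.04 (SE 0.22, limma adjusted p = 0.937). It turned to -0.13 without vehicle replicate 1. A short antisense gene inside Dct, 4930435M08Rik, had 2.38 to 7.13 FPKM.

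The 3 transporters had lower means with tacrolimus, and none had an adjusted p under 0.05. Slc24a5 (ENSMUSG00000035183, chr2:125068124-125088677), an exchanger of sodium, calcium and potassium, was at 500, 643, 496 and 615 FPKM in tacrolimus replicates 1 to 4 against 514, 929, 642 and 901 FPKM in vehicle replicates 1 to 4. Vehicle replicates 2 and 4 were above the other 6 libraries. The difference was -0.37 (SE 0.20, limma adjusted p = 0.359). Slc24a5 shares 4050 bases of its span with Myef2 on the other strand, at 19.9 to 27.5 FPKM. Slc45a2 (ENSMUSG00000022243, chr15:11000721-11029233), a melanosomal transporter behind the underwhite coat color, was at 334, 443, 328 and 466 FPKM in tacrolimus replicates 1 to 4 and at 317, 593, 461 and 602 FPKM in vehicle replicates 1 to 4, with a difference of -0.30 (SE 0.22, adjusted p = 0.481). That difference was -0.50 without vehicle replicate 1, -0.20 without vehicle replicate 2 and -0.19 without vehicle replicate 4. Oca2 (ENSMUSG00000030450, chr7:56239760-56536518), the pink-eyed dilution gene whose product raises melanosomal pH, had 32.4, 41.0, 32.1 and 48.0 FPKM in tacrolimus replicates 1 to 4 against 40.3, 57.8, 39.6 and 74.0 FPKM in vehicle replicates 1 to 4. Its difference was -0.43 (SE 0.22, adjusted p = 0.344), and it was -0.25 without vehicle replicate 4, the highest library.

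The remaining genes encode a receptor and a channel. Gpr143 (ENSMUSG00000025333, chrX:152781921-152808646), a G protein-coupled receptor of the melanosome membrane and the gene of ocular albinism, was at 31.5, 36.6, 25.7 and 43.1 FPKM in tacrolimus replicates 1 to 4 and at 37.1, 49.0, 38.3 and 57.8 FPKM in vehicle replicates 1 to 4. Tacrolimus replicate 4 lay above vehicle replicates 1 and 3, and the difference was -0.40 (SE 0.20, limma adjusted p = 0.317). Trpm1 (ENSMUSG00000030523, chr7:64153835-64269775), a cation channel whose transcript falls in aggressive human melanoma, was at 163, 210, 135 and 199 FPKM in tacrolimus replicates 1 to 4 against 172, 305, 204 and 318 FPKM in vehicle replicates 1 to 4. Its difference of -0.47 (SE 0.23, adjusted p = 0.306) was the largest in size of the 10. With each library left out the Trpm1 difference ran from -0.63 without vehicle replicate 1 to -0.34 without vehicle replicate 4. Mir211, the microRNA in a Trpm1 intron, is listed at 0 in all 8 libraries. It spans 106 bases, fewer than the 240 to 280 taken off transcript length in estimating depth, so the 0 does not show absence.

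Across the 10 genes, vehicle libraries spread more than tacrolimus libraries, as they did for some genes outside the pigment genes and not for others. The SD was larger in the vehicle group for all 10 genes, and the share over all tested genes was not counted. It was also larger with vehicle for Cd8a (54.5 beside 12.2 FPKM) and Lyz2 (314.9 beside 52.7 FPKM). For the melanoma cell marker S100b it was smaller with vehicle (19.8 beside 27.4 FPKM). Vehicle replicate 1 was the lowest of the 8 libraries for 5 genes and vehicle replicate 4 the highest for 6, with vehicle replicate 2 highest for the other 4. For 8 of the 10 genes, as deposited, vehicle replicates 2 and 4 both lay above every tacrolimus library. Those libraries, singled out after the values were seen, also had the largest median-of-ratios factors, 1.223 and 1.098. The factors were 0.8537 to 1.04 with tacrolimus. The count was not repeated after scaling, nor was its share over all genes taken. Vehicle replicate 1 lay inside the tacrolimus range for 5 genes and below it for the other 5. From the lowest to the highest library a gene varied 1.83 to 2.35 times. Vehicle replicate 1 was also the library with the highest T cell and macrophage sums, and their part in its pigment levels was not tested.

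Levels of the pigment genes varied together from library to library, with Dct and Mlana standing apart. Over the 8 libraries Pearson's r of log2(FPKM + 1) was 0.78 to 0.98 in the 28 pairs among the other 8 genes, and Spearman's rho was 0.71 to 0.98. It was 0.37 to 0.69 for Dct with the other genes and 0.12 to 0.60 for Mlana, with rho at 0.17 to 0.57 and 0.10 to 0.50. These values are descriptions over 8 shared libraries and their shared scaling. The tightest pairs held genes of different roles, such as Pmel with Slc45a2 and Slc24a5 with Trpm1, both at an r of 0.98. The weakest was Mlana with Gpr143, at an r of 0.12.

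**Figure D3:**
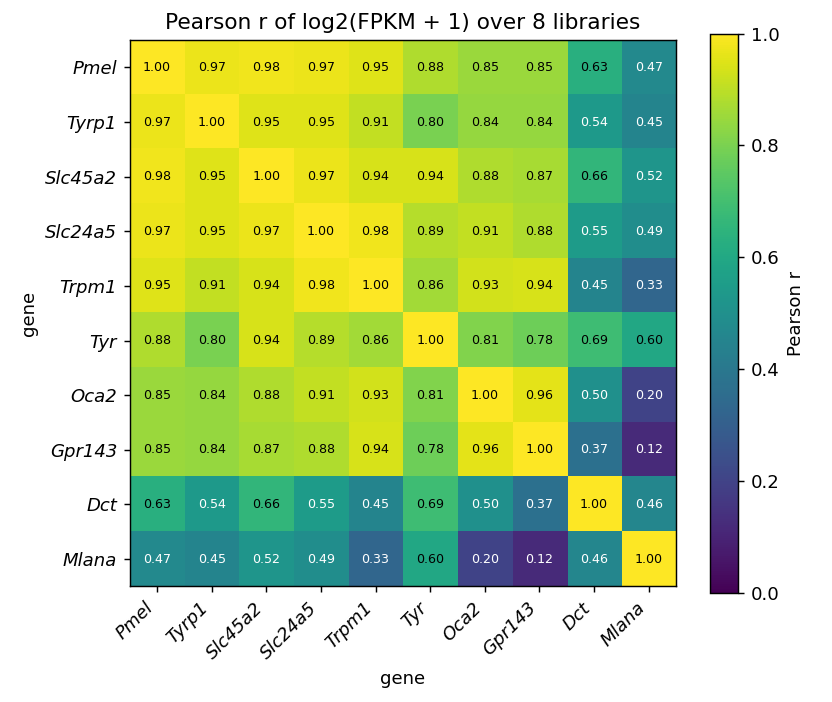
Pearson's r between the log2(FPKM + 1) values of each pair of pigment genes over the 8 libraries, with the value in each square. The block of 8 genes from Pmel to Gpr143 has values of 0.78 to 0.98, and the columns of Dct and Mlana are lower, at 0.12 to 0.69.

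Ratios between 2 pigment genes within a library do not depend on the scaling of that library, and they were examined after the values had been seen, so they are given without a test. In 12 of the 45 ratios (26.7%) the groups did not overlap, where 7.08% of the ratios among all pairs of tested genes above 0 in every library did not. The ratios share genes and are not independent of each other. In all 12, Tyr, Mlana or Dct was the gene that was relatively higher with tacrolimus, against one of the other 7 pigment genes. This split was read from the same values, and the directions restate the differences of the single genes given above. No ratio among those 7 genes separated the groups, of 21. Tyr took part in 6 of the 12, Mlana in 4 and Dct in 2. With a library left out the count was 12 to 20 of 45, with 20 reached without vehicle replicate 3. Among all tested genes the share of ratios separating the groups was 4.13% against Pmel, 7.35% against Tyrp1, 2.92% against Slc45a2, 4.76% against Slc24a5, 3.67% against Oca2, 5.06% against Gpr143 and 5.30% against Trpm1.

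Tyr relative to Trpm1 was 0.757, 0.759, 0.852 and 0.835 in tacrolimus replicates 1 to 4 and 0.594, 0.622, 0.649 and 0.589 in vehicle replicates 1 to 4, a difference of 0.38 in log2. All tacrolimus libraries were above all vehicle libraries, vehicle replicate 1 included. Tyr relative to Slc24a5 was 0.233 to 0.270 with tacrolimus and 0.199 to 0.208 with vehicle, and relative to Slc45a2 it was 0.352 to 0.368 and 0.287 to 0.322 in the same order. Against the 9 other pigment genes Tyr separated the groups in 6 ratios, where 4.57% of the ratios of all other tested genes to Tyr did so.

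Dct relative to Pmel was 3.35, 2.82, 4.17 and 3.29 in tacrolimus replicates 1 to 4 and 2.69, 2.18, 2.69 and 2.73 in vehicle replicates 1 to 4, a difference of 0.40 in log2 or 1.32-fold. The gap between the groups was narrow, 2.82 in tacrolimus replicate 2 beside 2.73 in vehicle replicate 4. Dct also separated the groups against Tyrp1, at 8.55 to 11.9 with tacrolimus and 6.29 to 8.36 with vehicle, and among all tested genes 6.91% of the ratios to Dct did so. Mlana relative to Tyrp1 was 0.692, 0.587, 0.771 and 0.588 in tacrolimus replicates 1 to 4 and 0.503, 0.553, 0.450 and 0.376 in vehicle replicates 1 to 4. Its ratios to Pmel, Slc24a5 and Trpm1 separated the groups as well, by 1.34 to 1.45-fold, and 10.8% of the ratios of all other tested genes to Mlana did so. Markers of T cells and macrophages differ between the groups in the same libraries, and their part in these ratios was not tested.

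**Figure D4:**
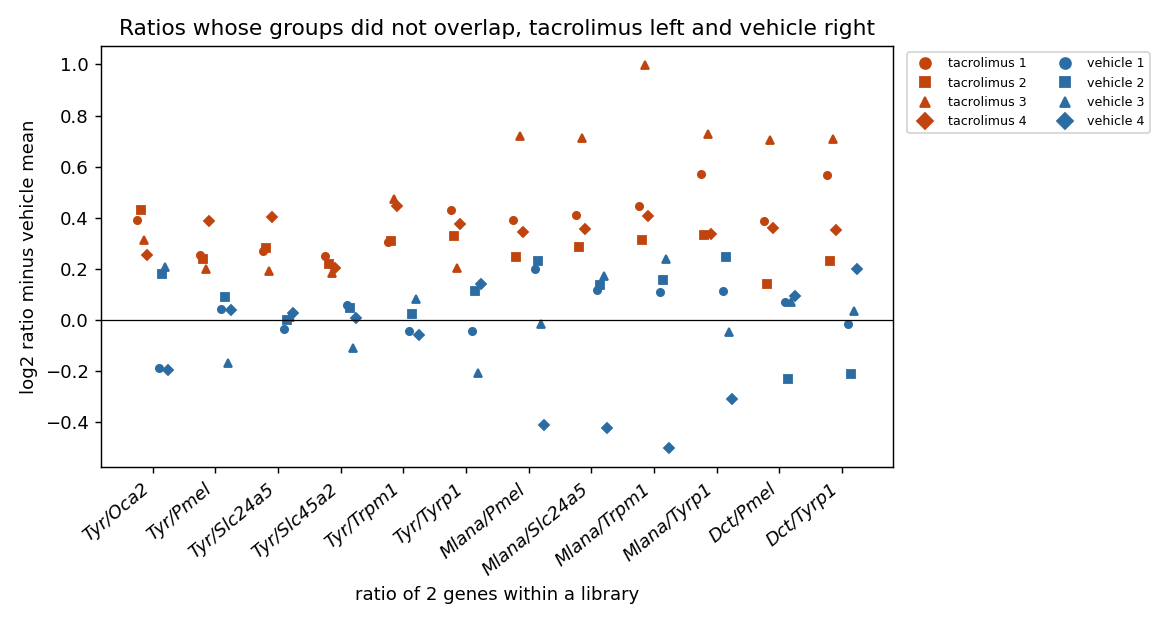
The 12 ratios between 2 pigment genes whose groups did not overlap, as log2 ratio minus the vehicle mean of that ratio, for each library, with tacrolimus left and vehicle right. The points of tacrolimus replicate 3 are the highest in the ratios with Mlana or Dct on top, and vehicle replicate 4 is the lowest in the 4 ratios with Mlana on top.

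No relation of Pmel to a T cell or a macrophage marker was detectable across libraries. Over the 8 libraries Pmel and Cd8a had a Pearson's r of -0.07 (exact permutation p = 0.885, adjusted p = 0.885) and a Spearman's rho of 0.10 (exact permutation p = 0.840, adjusted p = 0.885). Without tacrolimus replicate 2 and vehicle replicate 1, the libraries farthest from the median of Cd8a, r was 0.70 (exact permutation p = 0.149), so the value near 0 rests on those libraries. Pmel and Lyz2, the lysozyme gene of macrophages, had an r of -0.08 (exact permutation p = 0.854, adjusted p = 0.885) and a rho of -0.07 (exact permutation p = 0.882, adjusted p = 0.885), with an r of 0.06 (exact permutation p = 0.926) without vehicle replicates 1 and 4. The adjusted values run over these 4 coefficients. The coefficients pool both groups, and Cd8a (log2 difference -1.97), Lyz2 (-1.19) and Pmel (-0.36) all averaged lower with tacrolimus. Differences between the groups and between mice are therefore mixed in them. The labels give no batch, and 4 libraries in a group are too few for a value within a group.

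**Figure D5:**
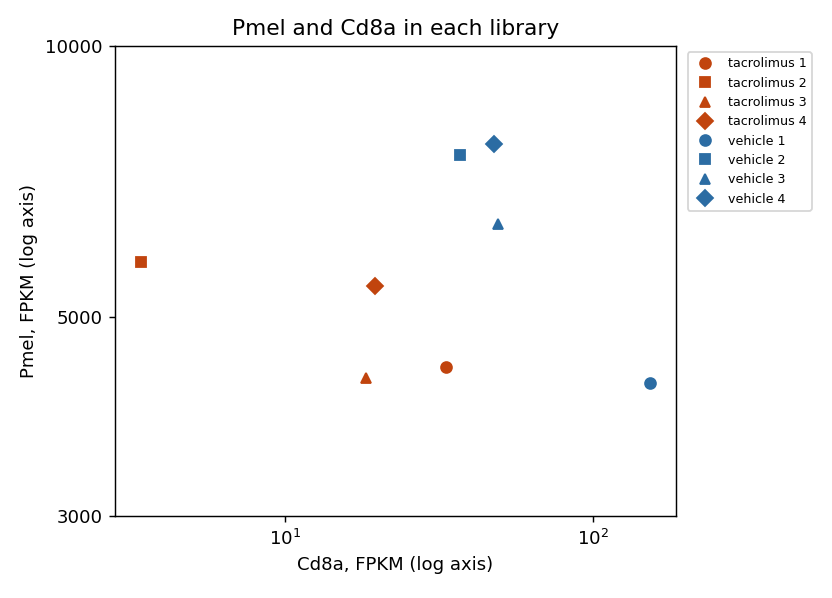
Pmel against Cd8a in FPKM, both on log axes, for each of the 8 libraries. Tacrolimus replicate 2 has the lowest Cd8a, 3.40 FPKM, and vehicle replicate 1 the highest, 153 FPKM, and both have a Pmel level within the range of the others or just below it.

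The wider pigmentation pathway was read from 46 genes in 3 lists, of which 45 were matched and 44 tested. In limma 0 of the 44 had an adjusted p under 0.05. With tacrolimus 35 were lower and 9 higher, with a median difference of -0.28, where 75.7% of all genes tested were lower, with a median of -0.19. After median-of-ratios scaling 24 were lower and 20 higher, where 50.1% of all genes tested were lower. At an unadjusted p under 0.05, 9 genes were lower, or 20.5%, beside 15.8% of all genes tested, and 1 was higher. In 4 genes (9.09%) the tacrolimus libraries lay wholly below the vehicle libraries, beside 10.2% of all genes. The lists hold genes that macrophages and T cells also express, such as Gpnmb, Cd63 and Lyst.

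Among genes of melanosome biogenesis and cargo sorting, 23 of 26 had a lower value with tacrolimus, where 75.7% of all genes did. Their median difference was -0.30 beside -0.19 for all genes, and -0.10 after median-of-ratios scaling, which puts all genes at 0.00. Cd63, the tetraspanin that sorts Pmel into the early melanosome, was the most abundant at 1939 ± 149 FPKM with tacrolimus and 2005 ± 322 FPKM with vehicle. Ap3b1, a subunit of the adaptor that carries tyrosinase to melanosomes, was at 16.3, 15.9, 14.3 and 16.5 FPKM in tacrolimus replicates 1 to 4 and at 22.2, 25.5, 19.4 and 22.9 FPKM in vehicle replicates 1 to 4. The groups did not overlap, and the difference was -0.49 (SE 0.14, limma adjusted p = 0.193). Ap3s1, of the same adaptor, averaged 53.9 ± 5.08 and 72.6 ± 7.06 FPKM, with a difference of -0.42 (SE 0.13, adjusted p = 0.195). Gpnmb, a Pmel relative, was at 531 ± 67.1 FPKM with tacrolimus and 594 ± 127 FPKM with vehicle. Rab38, a small GTPase that delivers tyrosinase and Tyrp1, was at 273 ± 38.6 and 308 ± 62.9 FPKM. The BLOC-1 subunits Bloc1s5 and Dtnbp1 were at 294 ± 62.3 and 90.0 ± 5.36 FPKM with tacrolimus beside 281 ± 60.4 and 101.3 ± 14.4 FPKM with vehicle. The small negative differences of Cd63, Gpnmb, Rab38 and Dtnbp1 became 0.06 to 0.19 after median-of-ratios scaling. The 6 genes of melanosome transport had lower values, with a median of -0.29 as deposited and -0.08 after median-of-ratios scaling.

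Of the signals and transcription factors of pigmentation, 6 of 12 tested genes had a lower value with tacrolimus, where 75.7% of all genes did. Their median was -0.09 as deposited and 0.12 after median-of-ratios scaling. Kit, the receptor for stem cell factor on melanocytes and mast cells, was at 6.45, 5.23, 5.37 and 6.79 FPKM in tacrolimus replicates 1 to 4 and at 7.59, 12.98, 11.5 and 15.5 FPKM in vehicle replicates 1 to 4. The groups did not overlap, and the difference was -0.86 (SE 0.22, limma adjusted p = 0.183). Creb1, a factor that carries the cyclic AMP signal to the Mitf promoter, was at 69.7, 72.3, 55.1 and 66.2 FPKM in tacrolimus replicates 1 to 4 and at 58.8, 16.1, 30.6 and 20.4 FPKM in vehicle replicates 1 to 4. Vehicle replicate 1 reached the tacrolimus range, and the difference was 1.21 (SE 0.33, adjusted p = 0.193). Sox10, which works with Mitf on pigment promoters, averaged 117 ± 31.2 FPKM with tacrolimus and 138 ± 48.9 FPKM with vehicle, a difference of -0.19 that became 0.03 after median-of-ratios scaling. It was -0.34 without tacrolimus replicate 2, -0.03 without tacrolimus replicate 3, -0.48 without vehicle replicate 1, -0.02 without vehicle replicate 2 and -0.12 without vehicle replicate 3, and -0.63 without tacrolimus replicate 2 and vehicle replicate 1 together. Mitf itself, named here after its values were seen, was at 50.1 ± 6.58 and 47.6 ± 10.7 FPKM, with a difference of 0.09 (SE 0.17, adjusted p = 0.799).

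The genes whose profile over the 8 libraries was most like the mean profile of the 10 pigment genes were Mcat, Oat, Tmem51, Slc25a13 and Cdk2, with a Pearson's r of 0.994, 0.993, 0.988, 0.987 and 0.986 and a Spearman's rho of 0.857 to 0.976. Cdk2, a cell cycle kinase, is the gene that overlaps the 5′ end of the Pmel span on the other strand. Oat, ornithine aminotransferase, was at 171 ± 21.1 FPKM with tacrolimus and 200 ± 45.2 FPKM with vehicle, a difference of -0.20 (SE 0.18, limma adjusted p = 0.557). Cdk2 was at 224 ± 25.9 and 267 ± 56.4 FPKM, a difference of -0.23 (SE 0.18, adjusted p = 0.497). As a yardstick, each pigment gene correlated with the mean profile of the other 9 at an r of 0.440 for Mlana, 0.598 for Dct and 0.839 to 0.994 for the other 8.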

How the data were processed

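RNA libraries of 8 mice, 4 given tacrolimus and 4 given vehicle, were analysed, and groups and replicate numbers come from the sample titles. Each library is 1 mouse per the series' design text, so p-values measure the spread between mice. Per the submitters' processing notes, HISAT2 2.1.0, RSEM 1.3.1 and DESeq2 1.24.0 and the build GRCm38.p6 were used, with no role or order given. The FPKM values deposited by the authors are already scaled for length and library size. The unit is inferred: no header names it, the sums were 890182 to 926808 per library, and 84.2% to 86.5% of low values lay within 0.15 of a whole multiple of 1 fragment after multiplication by length, against 30.0% for evenly spread values.

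Gene symbols and coordinates came from GENCODE M21 (GRCm38), with 260 identifiers unmatched, and promoters from RefSeq (GRCm38.p6). Genes reaching 1 FPKM in 4 or more libraries entered the test, and log2(FPKM + 1) was compared with limma 3.58.1 in R 4.3.3 (trended eBayes, treatment only, Benjamini-Hochberg over 13032 genes). Low genes' changes are understated on this scale. Single correlations used exact permutation of all orders (Python 3.11.15). The fit was checked on simulated data. At most 0.222% of values were identical between 2 libraries. The members and lists were chosen with earlier results of these data known. Named pathway genes are the 4 with the smallest unadjusted p and the 6 with the highest level, and the 5 most alike genes are those with the highest Pearson's r. Alternatives were pseudocounts, filters, scalings, variance settings, library weights, a replicate block and each library left out. The ratios, and leaving out vehicle replicate 1 and tacrolimus replicate 2 together, were added after seeing the data.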

Additional observations from a re-analysis of the deposited data

Results flagged for a closer look

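In 50 groups of 4 libraries, 3 held a value set apart from the other 3, and chance gives about 1 such group in 20. Vehicle replicate 1 had 153 FPKM of Cd8a, where the other vehicle libraries had 36.9 to 49.0. Tacrolimus replicate 1 had 1716 FPKM of Cd63, where the other tacrolimus libraries had 2001 to 2036. Tacrolimus replicate 4 had 61.5 FPKM of Ap3s1, where the others had 50.4 to 52.1. None of the 10 pigment genes was set apart in this way in either group.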

How the results depend on the processing

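None of the 10 pigment genes and none of the 44 pathway genes passed an adjusted p of 0.05 under any of the 19 alternatives, with adjusted p values of 0.145 to 0.999 for the 10 genes. Over all genes tested, 0 passed in the main comparison, 121 with the replicate number as a block, and 0 to 1 with a library left out, the 1 being without vehicle replicate 1. The labels do not say whether same-numbered libraries belong together. Deviations of same-numbered libraries correlated at 0.215, 0.277, -0.02 and -0.022, and libraries of different numbers were not set beside them, so pairing is left undecided. With the block the pigment genes had adjusted p values of 0.145 (Oca2) to 0.931 (Dct), and 0 passed.

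Directions near 0 turned. Across the alternatives 7 to 10 of the 10 pigment genes were lower with tacrolimus. The count of 10 was reached without vehicle replicate 1, and without it and tacrolimus replicate 2 together. With median-of-ratios and upper-quartile scaling the difference was 0.13 and 0.14 for Tyr, 0.19 and 0.19 for Cd63, 0.08 and 0.08 for Gpnmb, 0.07 and 0.07 for Rab38, 0.03 and 0.03 for Sox10, and 0.06 and 0.07 for Dtnbp1. Dct was at -0.06 with library weights, and without vehicle replicate 1 and tacrolimus replicate 2 together Mlana was at -0.07 and Dct at -0.12. With each library left out the range was -0.06 to 0.23 for Mlana, -0.27 to 0.03 for Tyr, -0.13 to 0.17 for Dct, -0.16 to 0.03 for Cd63 and -0.06 to 0.20 for Bloc1s5. Pmel against Cd8a had an r of -0.20 to 0.32 and against Lyz2 of -0.38 to 0.46, and with median-of-ratios scaling these were -0.35 and -0.38. The ratios that separated the groups numbered 12 to 20, 20 without vehicle replicate 3, and groups of fewer libraries overlap less often by construction. The pigment share with mitochondrial genes left out was 3.29% in the tacrolimus group, and the share of all genes whose groups did not overlap was 6.65% with median-of-ratios scaling. The order of the 10 mean levels was the same with medians and with each library left out. The cause of these turns was not tested.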
